A study of Oryza sativa with 6 samples.

Results

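The loci described here are the rice genes whose transcript signal was above that of control roots soon after exposure to hexavalent chromium, Cr(VI), and near it after 24 h. They were chosen on the deposited log2 ratios of treated over control signal, averaged over the probes of a locus on each array. A member had a ratio of at least 1 on each of the 3 arrays of the short exposure, a short mean of at least 1.5, a mean within 0.5 of 0 on the 3 arrays of 24 h, and a treated signal well above background on all 3 short arrays. Of 29689 loci on the array, 142 met this rule. Since it uses the ratios of both exposures, those ratios are given below as a description of the members, without a test.

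The seedlings were 6 days old and of the cultivar TN-67, and their roots were measured on 6 Agilent arrays that each compared treated RNA in Cy5 with control RNA in Cy3. The short group held 3 arrays of roots exposed to 50 µM Cr(VI), each a pool of roots taken after 1 h and 3 h, and the long group 3 arrays of roots exposed to the same dose for 24 h. Controls were roots of the same cultivar and age kept in water. The dyes were never exchanged, so any preference of a probe for Cy5 or Cy3 is part of every ratio. The arrays are biological replicates by their labels, which leave unsaid how the control RNA was divided over them, so the spread given here is that between these samples. Because the short arrays pool the first harvests, a transcript that peaked at one of them appears here as an average.

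Chromate is taken up by plant roots largely through sulfate transporters and is reduced inside the cell, with reactive oxygen species formed on the way. In plants, a sudden stress is commonly followed within hours by a wave of transcripts that rise and fall again, among them those of transcription factors, calcium sensors, protein kinases and ubiquitin ligases. The deposited files pair the loci with no gene names or descriptions, and 0 of the 29689 locus numbers and 0 of the probe accessions matched the RefSeq gene table used here. The members are therefore given by locus number, and none is assigned to such a class. For the same reason the labelled tissue was not checked against root markers.

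Many more loci shared the early rise than the later return. The short part of the rule, with its demand on the treated signal, was met by 919 loci. At 24 h, 590 of them still had a mean log2 ratio of at least 1, 137 lay above 0.5 and below 1, 142 were the members and 50 lay below -0.5. A ratio of at least 1 on each short array was measured for 4.27% of all loci. The loci just past the limits were close to the members. Os01g0219300 was left out with a short mean of 1.4999 and Os06g0158100 was included with 1.51. Os03g0826800 was left out with a 24 h mean of 0.5003 despite a short mean of 4.18, and Os02g0532900 was included with 0.4956. Os11g0115600 was left out for a lowest short ratio of 0.974, and Os04g0194500 was included with 1.0006, although its control was not well above background on any of those arrays. A further 9 loci met the limits on the ratio but not the one on the treated signal.

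**Figure D1:**
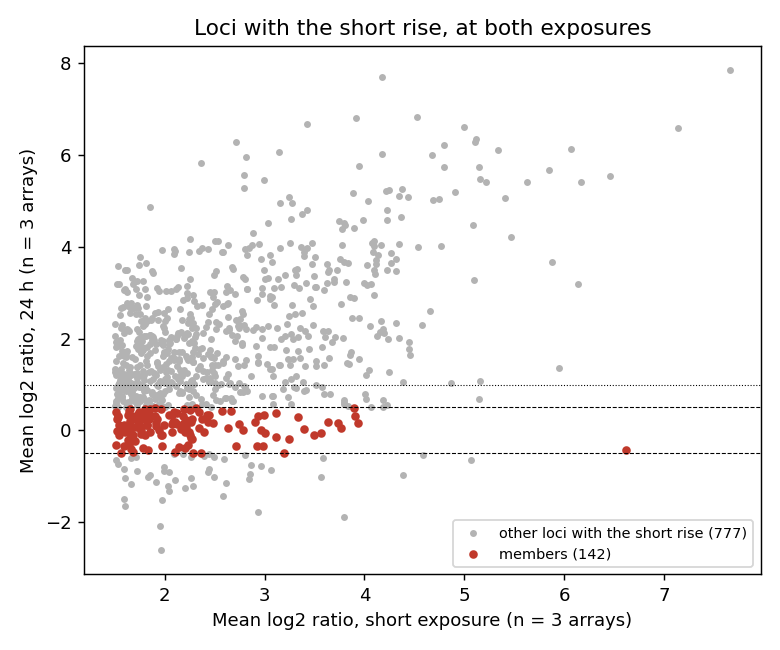
Mean log2 ratio of treated over control at 24 h against that of the short exposure, 1 point per locus, for the 919 loci with the short rise; the 142 members are red, the dashed lines mark 0.5 and -0.5 and the dotted line marks 1. The members form a band of short means from 1.51 to 3.93, with a single locus beyond it at 6.63.

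The rise of the members was mostly moderate. Their short means ran from 1.51 to 6.63 on the log2 scale, with a median of 1.95, a 3.87-fold ratio. With background-corrected and loess-normalized ratios the median of the same loci was 1.25, and 43 of them met the rule. The deposited short mean was 3 or more in 16 loci and under 2 in 76. The 24 h means ran from -0.49 to 0.496 with a median of 0.10, and 93 of 142 lay above 0. The 590 loci that stayed at 1 or above had a higher short median, 2.47, and a 24 h median of 2.21. Across the arrays, the members' medians were 1.78, 2.06 and 2.10 for short replicates 1 to 3, and 0.27, 0.05 and -0.05 for long replicates 1 to 3. Over all loci the array medians lay between -0.19 and 0.05. In 141 of 142 members every short ratio exceeded every 24 h ratio, against 21.8% of all loci, a separation that the rule largely sets. The exception was Os03g0130100, with 1.101, 2.41 and 1.86 on the short arrays and 1.29, -0.14 and -0.04 at 24 h, whose control was well above background on 1 short array.

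**Figure D2:**
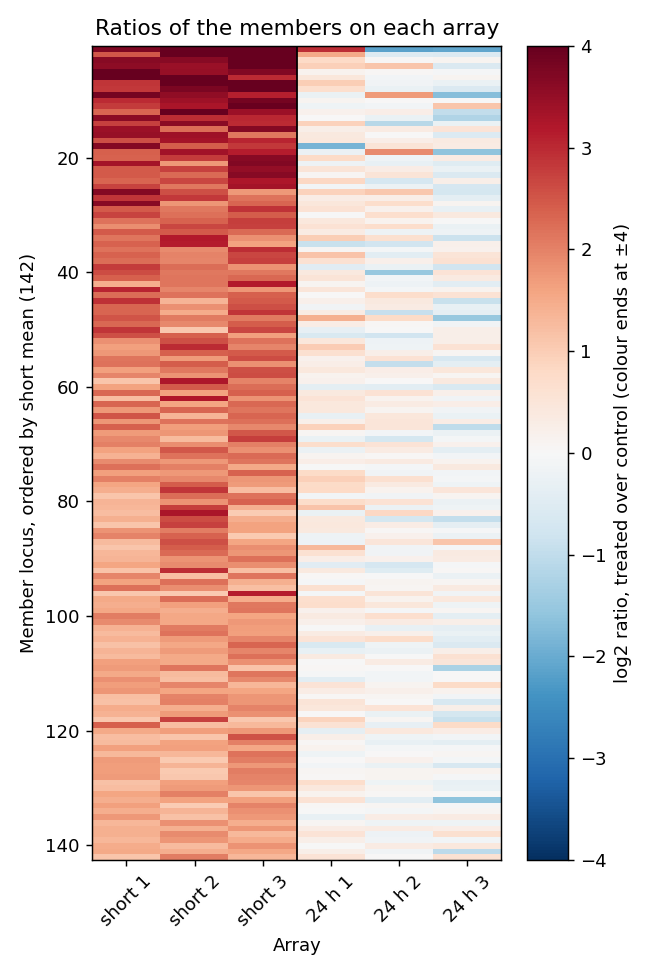
Log2 ratio of treated over control for the 142 members (rows, ordered by short mean) on each of the 6 arrays (columns); red is above and blue below 0, and the colour ends at 4 and -4. All short columns are red by the rule, while single blue or red cells at 24 h mark members whose 3 long arrays differed.

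The members differed in how far their signals stood above background. Both channels were well above background on all 6 arrays for 74 members, 52.1%, against 66.1% of all loci and 54.4% of the 590 loci that stayed high. In the other 68 members at least 1 channel was below that level on some array. The short median was 1.76 in the former and 2.18 in the latter, and the median SD between the short arrays was 0.39 and 0.57. For a channel to count on an array, 1 probe of the locus well above background was enough, while the ratio averages all its probes. This concerns the 37 members with several probes. In 29 members, 20.4%, no short array had a control signal well above background. The same held for 133 of the 590 loci that stayed high, 22.5%. The share of all loci was not computed for this count or the next. In 25 members the control was above on 1 short array, which was replicate 1 in 23 of them. That array lay on a slide of its own and had a local background of 36 in Cy3, while replicates 2 and 3 lay together on another slide with 71.5 and 73.5. The part of the slide in these flags was not tested.

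Among the 74 members measured throughout, Os06g0142300 on chromosome 6 had the highest short mean. Its ratios were 2.497, 4.36 and 4.94 on the short arrays and 1.51, -0.51 and -0.53 at 24 h, so that the groups did not overlap although each spread widely (3.93 ± 1.28 and 0.16 ± 1.17, SD, n = 3). Os05g0469600 on chromosome 5 was tighter, at 3.64, 3.64 and 4.44 and then 0.80, 0.05 and 0.10. Its 4 probes gave short means from 1.92 to 4.72. At 24 h they lay between 0.20 and 0.41, a much narrower range. The brightest of them was the one at 1.92.

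Os07g0663800 on chromosome 7 had short ratios of 3.57, 3.45 and 4.67. At 24 h its arrays gave 0.94, 1.10 and -0.58, a mean of 0.49 that lies just within the limit. Os01g0303800 on chromosome 1 had short ratios of 2.83, 3.77 and 4.09 and long ratios of 0.67, -0.27 and -0.58. In these 2 loci the long arrays fell on either side of 0, and all of them stayed below every short array.

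The pair Os12g0197100 and Os05g0438600 had nearly the same short mean, 2.93 and 2.92, with a different spread. The former was at 2.36, 2.81 and 3.63, the latter at 3.32, 1.74 and 3.70. At 24 h Os12g0197100 was at 0.77, -0.16 and 0.32, while Os05g0438600 was below 0 on each array, at -0.19, -0.31 and -0.50. Os05g0355400 was at 2.33, 2.67 and 3.24 and then at 0.82, -0.67 and 0.24. Its probes disagreed, with short means of 0.73 and 4.76. The brighter probe was the one at 0.73, which alone would not meet the rule, so membership rests on the dimmer probe.

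Further down the order, Os02g0227100 was at 2.63 ± 0.39 and Os06g0328400 at 2.48 ± 0.39 after the short exposure (SD, n = 3), and at 0.06 ± 0.38 and 0.15 ± 0.44 at 24 h. Os12g0556200 was at 2.18, 2.36 and 2.76, then at 0.43, 0.13 and -0.02. Os02g0668500 kept a small positive ratio on each long array, 0.62, 0.21 and 0.62, after 2.25, 1.96 and 2.73. The last of the 12 highest, Os01g0699600, was at 2.62, 2.10 and 2.10, with 0.39, -1.51 and 0.55 at 24 h. Neighbours in this order differ by less than their spread: the first 3 short means were 3.93, 3.91 and 3.90, with SDs of 0.46 to 1.28. Their 24 h means often depended on 1 array. Os07g0663800 was at 1.02 without long replicate 3, and Os06g0142300 at -0.52 without replicate 1. Without replicate 2, Os12g0197100 was at 0.55, Os05g0355400 at 0.53 and Os02g0668500 at 0.62, and without replicate 3, Os01g0699600 was at -0.56. Each of these is outside the limit of 0.5.

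**Figure D3:**
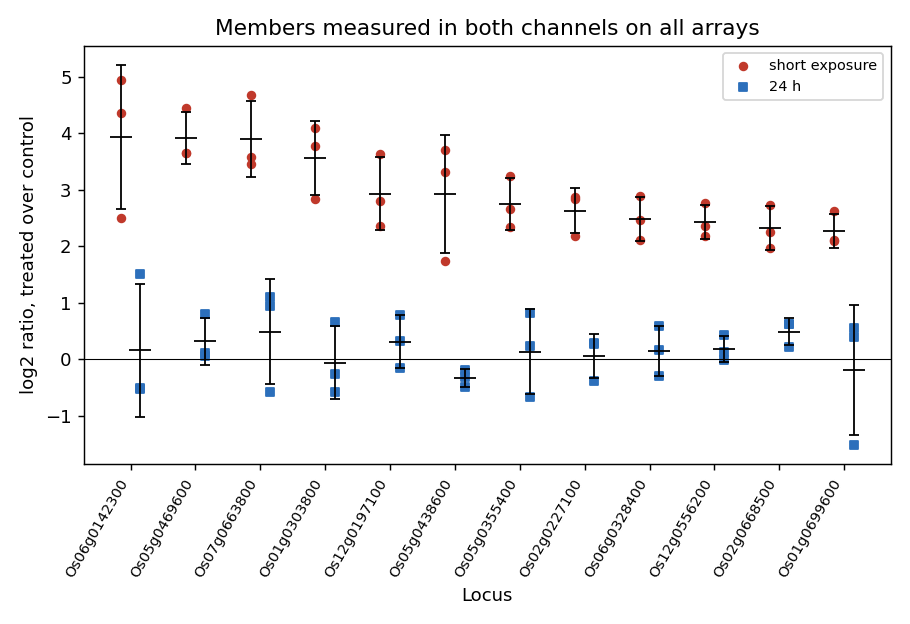
Log2 ratio of treated over control on each array for the 12 members with the highest short mean among the 74 measured in both channels throughout; circles are short arrays, squares are 24 h arrays, and bars show mean ± SD (n = 3). Every circle of a locus lies above every square of it, and in 9 of the 12 loci the squares lie on both sides of 0.

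Some members were steady between arrays at either exposure. Os10g0147200 on chromosome 10 had short ratios of 1.63, 1.64 and 1.56 and long ratios of 0.13, -0.09 and -0.06. Os12g0612600 on chromosome 12 had the smallest spread at 24 h, with 0.08, 0.12 and 0.13. Over all members the SD ran from 0.04 to 2.75 for the short arrays and from 0.03 to 2.92 for the long ones, with medians of 0.45 and 0.33. These 2 loci were singled out after their values were seen.

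Where control RNA gave no measurable signal, the rise can only be given as a cautious estimate, called a limit here. It sets the treated signal against the dimmest control spots that were well above background, or against the control signal of the probe itself where that was higher, after loess and Aquantile normalization, and without swapped dyes it is open to dye bias. Among the 29 such members, the 5 with the highest short means were Os02g0719600, Os03g0642900, Os03g0129800, Os04g0387300 and Os01g0698800, with deposited means of 3.74, 3.50, 3.33, 3.20 and 3.12. By this limit their treated signal was 2.14-fold, 1.88-fold, 2.14-fold, 1.68-fold and 2.14-fold higher than control. The values come from means of the 3 short arrays without allowance for their spread, so the rise may also be smaller. The limits of all 29 had a median of 1.58, and 4 reached 2. In 5 of the 29 the control signal of the probe was the higher one on every short array, so that the value equals the fitted ratio. The highest, 6.81 for Os02g0818000 (chosen after its value was seen), is one of these and comes from the brightest of its 7 probes.

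At 24 h more members were measured in both channels. On all 3 long arrays, both channels were well above background in 112 members. In 7 members neither channel was on any long array, so that their 24 h ratio compares signals that were not measured and does not show a return. Os02g0719600, Os03g0129800 and Os04g0387300 were among them. In 10 members, Os01g0698800 among them, the control was below that level throughout the short arrays and above it on all 3 long ones. Over all loci, too, the control was well above background more often on the long arrays, at 83.04%, 78.33% and 78.13%. On the short arrays these shares were 75.72%, 73.08% and 68.36%, and the exposures lay on different slides. The counts of 112 and 10 therefore cannot be read as particular to the members.

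A 24 h mean near 0 also arose from long arrays that disagreed. All 3 long ratios lay within 0.5 of 0 in 62 members and within 1 in 121. Of the 74 measured throughout, 40 kept within 0.5 on every long array and 7 had an array beyond 1. In 4 members at least 1 long array lay above 1 and at least 1 below -1. They were Os06g0142400 (2.95, -2.16 and -2.07), Os04g0178400 (1.43, 0.76 and -1.51), Os03g0642900 (-0.27, 1.70 and -1.69) and Os04g0581100 (-0.24, 1.88 and -1.60). Their means were -0.43, 0.22, -0.09 and 0.01. In the last 2 loci the control was well above background on 1 long array. Long replicate 1 was the highest of the 3 in 76 members and replicate 3 the lowest in 74. Replicate 1 was also the highest in 272 of the 590 loci that stayed high. Over all loci the medians of long replicates 1 to 3 were 0.01, -0.07 and 0.05. None of the counts of long arrays given here was computed over all loci.

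A ratio can return through a lower treated signal, a higher control signal, or both. On normalized single channels, with outlier spots left out, 141 members had a value for each exposure. Background correction of these channels added an offset, which pulls the ratios of dim loci toward 0. The 24 h minus short difference of the treated signal had a median of -1.06 (log2) and was below 0 in 137 of them. That of the control signal had a median of 0.05, and was above 0 in 82 and below 0 in 59. The treated signal moved further than the control in 126 members. The counts of 137 and 126 follow in part from the rule. It asks for a ratio that falls, and for a measured treated signal on the short arrays only. Shares of all loci were not computed for these counts, nor for the 82 and 59. In 29 members the control was unmeasured throughout the short exposure, so a later fall of it could hardly show. On median-centred Agilent processed signals, the source of the deposited ratios, the members' medians were -1.67 (treated) and 0.135 (control). On the normalized channels, in the 74 members measured in both channels throughout, the median differences were -1.34 (treated) and -0.02 (control). Over all loci the medians were -0.02 and -0.002, and over the 590 loci that stayed high they were -0.04 and -0.06. With values on all 6 arrays, 122 of 136 members had every 24 h treated signal below every short one, against 25.1% of all loci, a count that follows in part from the rule. Every 24 h control signal was above every short one in 27 of the 136 and below in 16, against 14.9% and 14.5% of all loci.

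Single members show both forms. The treated signal of Os01g0303800 was 13.32, 12.63 and 13.88 (log2) on the short arrays and 9.83, 9.11 and 8.59 on the long ones, while its control went from 10.58, 9.19 and 9.85 to 9.25, 9.31 and 9.24. Here the treated groups were far apart and the control ranges overlapped. In Os05g0477900 the treated signal was 9.70, 8.70 and 9.20 and then 9.40, 9.55 and 8.93, while the control went from 8.44, 7.29 and 7.93 to 9.33, 9.69 and 9.03. Its ratio thus returned with a higher control and an overlapping treated signal. The control of Os06g0185500 also differed by 1.46, and that of Os04g0679400 by -1.34 along with a treated difference of -2.95. These 3 were singled out after their values were seen. The 24 h arrays shared a slide that held none of the short ones, so in single channels exposure and slide cannot be told apart.

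**Figure D4:**
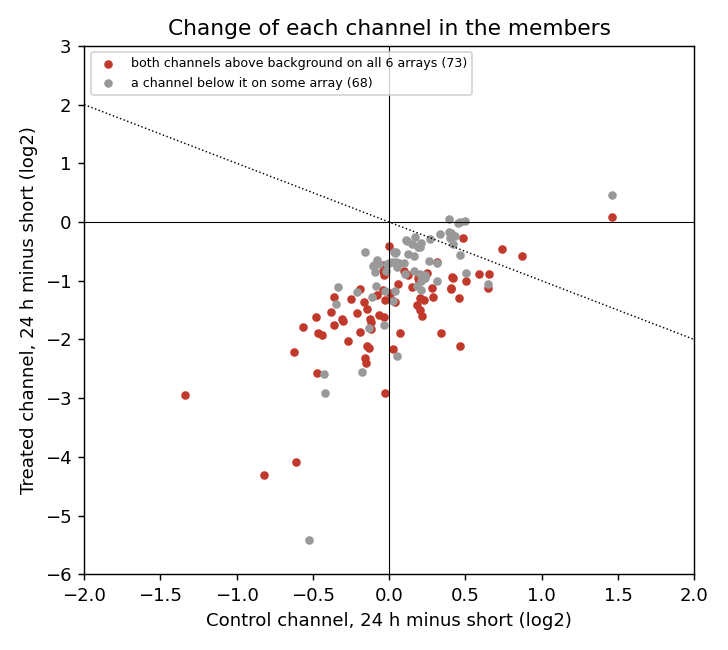
Difference of the treated (vertical) and control (horizontal) log2 signal, 24 h minus short, for 141 members; red points were above background in both channels on all 6 arrays, and on the dotted line both channels changed equally in opposite directions. Of the points, 137 lie below 0 vertically, in part by the rule, and 82 lie to the right of 0, both without a share of all loci. The 2 at the far right are Os05g0477900 and Os06g0185500.

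A fit over all genes gives the share of calls that the members can be read against. It used background-corrected and loess-normalized ratios of the brightest probe and limma with Benjamini-Hochberg adjustment, at an adjusted p under 0.05. Of 139 members with enough signal to be tested, 94 were called at least 2-fold higher after the short exposure, against 4.66% of the 23217 loci tested. At 24 h, 0 were called 2-fold higher (background 4.9%), 18 were called higher by any amount (33.8%) and 1 was called lower (31.1%). For the difference of the exposures, 90 were called at least 2-fold lower at 24 h (3.82%). The rule used the same arrays and contrasts, so nothing follows from these counts about the members. After background correction with an offset, which pulls the ratios of dim loci toward 0, and loess, all 142 short means were above 0 and 94 were at least 1. Their median was 1.55 in the 74 members measured throughout and 0.84 in the others.

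Different probes of a locus offer a view of how far a member rests on 1 sequence. The 142 members had 207 probes, and 105 members had a single one. Among the other 37, the short means of the probes of a locus differed by a median of 0.45, by less than 0.5 in 20 loci and by 1 or more in 11. All probes had a short mean of at least 1 in 31 of the 37. In 26 of these, all probes also lay within 0.5 of 0 at 24 h. The 13 probes of Os04g0679400 gave short means from 1.90 to 2.47. The 7 probes of Os02g0818000, in contrast, ran from -0.27 to 5.31 after the short exposure and from -0.79 to 1.23 at 24 h, so that its average stands for no probe. Both were named after their values were seen. Probes labelled as made from an mRNA were present for 69.7% of members, 69.0% of the loci that stayed high and 69.0% of all loci.

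The members were spread over all 12 chromosomes. Chromosome 6 held 19, or 7.95 per 1000 loci on the array, chromosome 1 held 25 (6.00) and chromosome 3 held 9 (2.49). Locus numbers follow the order along a chromosome, and in 3 pairs of members no other measured locus lay between. These pairs involve 6 members, 4.23%, while 100 of the 590 loci that stayed high, 16.9%, had such a neighbour. The lists differ in size, which alone changes these shares. The files hold no probe sequences, so hybridization of a probe to a similar neighbour was not tested.

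The pair with the largest ratios was Os06g0142300 and Os06g0142400 on chromosome 6. Os06g0142400 had short ratios of 3.72, 6.96 and 9.20, the highest mean of all members with the widest spread (6.63 ± 2.75, SD, n = 3; 5.13 after loess). Its control was above background on 2 short arrays, and its treated signal on 1 of the 3 long arrays, replicate 1, where the ratio was 2.95. Without that array its 24 h mean was -2.11. The locus on the other side, Os06g0142200, shared the early ratios at 2.79, 4.0039 and 4.58. It is no member, since at 24 h it was at 0.18, -2.47 and -3.34. In all 3 loci the order of the short arrays was the same, replicate 3 highest and replicate 1 lowest, and long replicate 1 was the highest of the long arrays. Farther out, Os06g0142100 and Os06g0142600, both measured throughout, had short means of -0.05 and 0.34. At lower locus numbers, beyond Os06g0142100, the early rise was seen again. Os06g0141700, a member measured throughout, was at 1.47, 2.14 and 3.19 and then 0.10, -0.19 and -0.42. Os06g0141600 is no member, with a short mean of 4.59 and a 24 h mean of -0.54. Both were picked out after their values were seen.

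The pair Os07g0537500 and Os07g0537600 on chromosome 7 was smaller and steadier. The former was at 1.33, 1.76 and 1.49 and then 0.23, -0.13 and -0.11, the latter at 1.19, 1.97 and 1.78 and then 0.06, 0.09 and -0.10. Their neighbours Os07g0537400 and Os07g0537900 had short means of 1.00 and 1.21 and 24 h means of 0.83 and 0.92, the latter locus with a control above background on 3 of the 6 arrays. In the pair on chromosome 1, Os01g0699500 was at 2.16, 2.44 and 1.84 and then 0.27, -0.96 and -0.39. Os01g0699600, given above, shared with it the lowest value on long replicate 2. Directly before the pair, Os01g0699400 had a short mean of -0.24 and a 24 h mean of -1.53. Its control was above background on 1 of the 6 arrays and its treated signal on 0. The locus before that, Os01g0699100, had a short mean of 1.23 and a 24 h mean of 1.29. After the pair, Os01g0699900 had means of 0.08 and 0.34.

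Other groups had 1 or 2 loci between members and were picked out after their values were seen. On chromosome 7, Os07g0119800, Os07g0120100 and Os07g0120300 had short means of 1.91, 2.28 and 2.21 and 24 h means of 0.11, -0.49 and -0.39. The control of Os07g0120100 was unmeasured on every short array, and its treated signal there was 1.27-fold higher by the limit used above. The control of Os07g0120300 was well above background on 1 of 3, so that of the 3 loci only Os07g0119800 was measured throughout. Between the first pair lies Os07g0120000, which went the other way, with a short mean of -2.30 and a 24 h mean of -5.15. Its treated signal was above background on 3 of the 6 arrays, so the size of these ratios is not well measured. On chromosome 8, Os08g0189600 and Os08g0190100 had short means of 2.10 and 3.24, each with a control well above background on 1 of 3 short arrays. After background correction and loess these means were 0.83 and 1.28, so the size of the ratios and their order between arrays are not well measured. Between them, Os08g0189900 shared the early rise, at 1.31, 2.79 and 1.87, and was at -0.96, -1.13 and -0.56 at 24 h. Its control was above background on 2 of the 6 arrays and its treated signal on 3. Os08g0189700, also between them, had a short mean of 0.23.

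On chromosome 4 the return of 2 members rests on a single array. Os04g0178400 was at 2.51, 2.06 and 2.07 after the short exposure, and Os04g0179700 at 2.38, 1.67 and 1.91. At 24 h they were at 1.43, 0.76 and -1.51, and at 0.91, 0.48 and -1.02. Without long replicate 3 their 24 h means were 1.09 and 0.69, outside the rule. The control of Os04g0179700 was above background on 1 of 3 short arrays. The same array was the lowest of the long ones in the nearby Os04g0178300, Os04g0179100, Os04g0179200 and Os04g0180400, where it gave -1.53, -1.02, -0.19 and -1.81 while replicate 2 gave 1.67, 1.59, 2.57 and 4.02. These loci had short means of 1.26, 1.95, 1.61 and 2.20. The control was above background on 2, 3 and 4 of the 6 arrays in the last 3 of them, and on all 6 in Os04g0178300. Replicate 3 was not the lowest in Os04g0177600, measured throughout, at -0.12, -0.29 and -0.02, or in Os04g0180300, with both channels below background. The cause was not tested.

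**Figure D5:**
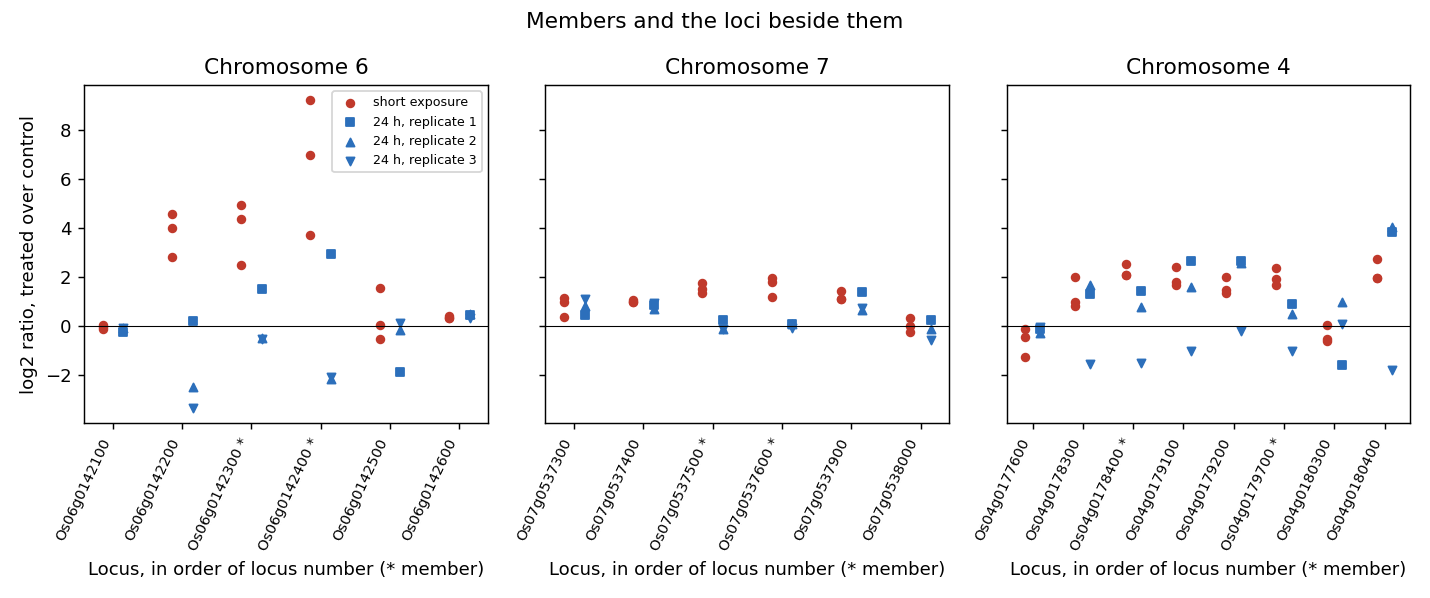
Log2 ratio of treated over control on each array for members (marked *) and the loci next to them by locus number, on chromosomes 6, 7 and 4; circles are short arrays, and squares, upward and downward triangles are 24 h replicates 1, 2 and 3. On chromosome 4, replicate 3 lies below 0 in 6 loci in which the other long replicates lie above 0.

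Membership itself changed with single arrays. With each array left out in turn and the rule applied to the rest, 64 of the 142 loci met it every time, 32 of them measured throughout. Leaving out short replicate 1 removed 2 members, and leaving out any other array removed 16 to 23. The count changed little, from 139 to 168, because other loci entered.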

How the data were processed

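Agilent Feature Extraction, version 10.7.1.1 by the headers, made the deposited intensity values, which are linear pixel medians of each spot and of the background around it, and the processed signals and spot flags. The deposited series table holds log2 ratios for 42475 probes. They matched log2 of processed red over processed green (median difference 2.5e-07 to 3e-07) and were not centred (column medians -0.178 to 0.0385). These ratios, averaged per locus, define and describe the members. The genome build is not given in the sources used here.

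From the median intensities, ratios were recomputed in limma 3.58.1 (R 4.3.3) with normexp background correction (offset 50) and loess, with control and outlier spots at weight 0. Outlier spots (163 to 1936 of 43734 per array) were left out. Single channels were scaled with Aquantile. Between 68.14% and 82.53% of spots per array and channel were well above background, and 0 spots were saturated. Precision is set by the small number of arrays. The brightest probe of each of 30277 genes, of which 29689 were loci, entered 1 limma fit over the 6 arrays if a channel was above background on at least 3 arrays and each exposure kept at least 2 values, as 23508 genes did. The fit and the rule were run on simulated data with planted rises. These data had no dim controls and no slide effects, so they check the code and not the members.

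The members and lists were chosen with earlier results of these data known. Named loci were the 12 highest short means among members measured throughout, the 5 highest with unmeasured control, those nearest each limit of the rule and adjacent members, and others are marked where they appear. Functional classes, promoter motifs and tissue markers could not be filled, because no locus was annotated in the sources used here. Slide 1 held short replicate 1, slide 2 held short replicates 2 and 3, and slide 3 held the 24 h arrays.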

Additional observations from a re-analysis of the deposited data

How the results depend on the processing

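With normexp and loess ratios in place of the deposited ones, 75 loci met the rule, 43 of them shared with the 142 members (57.3% of the former and 30.3% of the latter), and the members' short median was 1.25. With both channels required above background on all 6 arrays, 74 members remained, with a short median of 1.76. Median centring and the brightest probe gave 168 and 147 members. The median treated difference was -1.67 with Agilent's processed signals, -1.34 in the 74 members measured throughout, and -1.14 to -0.93 with an array left out. The other alternatives moved the medians of the ratios and of the control difference by less than the spread between arrays. Over all genes, 1083 were called 2-fold higher after the short exposure, 1149 at 24 h, and 886 2-fold lower at 24 h than before. Agilent's processed signals gave 1885, 1917 and 1551, and median centring in place of loess 1147, 961 and 1282. With the replicate number as a block the counts were 1086, 1152 and 888, and with the slide as a random block 1086, 1151 and 890. Same-numbered arrays did not deviate together (correlations -0.236, -0.117 and -0.1 across 22507 genes). The other combinations of a short and a long array ran from -0.0245 to 0.125. These are deviations from means of 3 arrays, and the exposures lay on different slides. The correlations therefore cannot decide whether same-numbered samples are paired. Of 126 recomputed short means of the 21 loci named by the rule as highest or adjacent, 14 moved beyond their SD, 12 of them with loess, and none fell below 0. No alternative removes the tie between slide and exposure.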
